A study of Mus musculus with 6 samples.

Results

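The genes described here encode the machinery that brings proteins into mitochondria, folds them there and degrades them. They were taken from the deposited table as every gene whose symbol begins with Timm or Tomm followed by a digit, plus 20 named chaperone, protease, sorting and prohibitin genes, which gave 45 of the 24318 genes in the table. The cells were CAD cells, a mouse catecholaminergic neuronal line. One group of 3 libraries came from cells given an siRNA against circGigyf2, a circular RNA made by back-splicing of exons of Gigyf2, and the other group of 3 from cells given a control siRNA. They are called siCircGigyf2 and siNC. The dose, the time after transfection and the siRNA sequences are not given in the labels. Both groups are of a single cell line, and whether replicates were grown apart is not given either, so p-values reflect the spread among libraries, which may be technical.

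Nearly all mitochondrial proteins are made in the cytosol and imported. Precursors enter through the TOM complex of the outer membrane, small TIM chaperones carry membrane proteins across the intermembrane space, the TIM23 channel and its motor draw presequence proteins into the matrix, and a processing peptidase removes the presequence. In the matrix, mitochondrial Hsp70 pulls and unfolds the chain, the Hsp60 and Hsp10 chaperonin folds it, and AAA+ proteases remove what fails to fold. Neurons depend on this machinery because of their demand for oxidative phosphorylation, and inherited defects of several of its proteases and chaperones cause spastic paraplegia, ataxia or leukodystrophy.

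Levels are FPKM, fragments scaled to transcript length and to the mapped fragments of the library, so levels of different genes are already per length. A negative difference means a lower level in siCircGigyf2. Differences were taken after adding 1 to FPKM and taking log2, which makes changes of low genes look smaller, and came from limma with Benjamini-Hochberg adjusted p-values over all 11420 genes with a mean of at least 1 FPKM. FPKM summed to between 578627 and 624645 in the 6 libraries, and steps between low values put their depth at 0.802 to 1 of that of siNC replicate 1, with all siCircGigyf2 libraries (0.802 to 0.914) shallower than the siNC libraries (0.953 to 1). The depth itself was not given in the sources used here. All 9 neuronal and catecholaminergic markers averaged at least 1 FPKM, and their summed level was 526 to 541 FPKM in the siCircGigyf2 libraries and 450.0 to 458 in the siNC libraries; the part of depth and of these markers in the results was not tested. In bulk RNA, fewer cells of a type and less RNA per cell cannot be told apart. Of the astrocyte, oligodendrocyte, microglia, endothelial and fibroblast markers, Pecam1 and Col1a1 averaged at least 1 FPKM, and Aqp4, Aldh1l1, Mag, Itgam, Col1a2 and Lum were listed at 0 in all libraries. Gigyf2, the host gene, averaged 21.4 ± 0.330 (SD, n = 3) against 23.2 ± 0.0749 FPKM. This gene-level value does not separate the circular from the linear RNA, so the knockdown is not checked by it.

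Genes of this machinery moved in both directions, more of them down than up, and no set test was run. Of the 45 genes, 42 passed the filter on low values, 3 rose, 11 fell and 28 did not pass the test. The share past the threshold was 33.3%, beside 38.2% of all genes tested, of which 19.5% rose and 18.7% fell. The groups did not overlap for 4 higher and 13 lower genes of the set, where 51% of all genes tested separated, 25.7% upward and 25.3% downward. The median log2 difference of the 42 genes was -0.043, beside 0.00035 over all genes tested, and their median absolute difference was 0.090, beside 0.12. The summed FPKM of the 45 genes was 2285 to 2350 in the siCircGigyf2 libraries and 2417 to 2449 in the siNC libraries. Without Hspd1 these sums were 2202 to 2262 and 2268 to 2294, a narrow gap. As a share of the total FPKM of each library, the 45 genes held 0.376% to 0.382% in siCircGigyf2 and 0.407% to 0.418% in siNC. The change of largest size was the fall of Hspd1, the chaperonin Hsp60, to 0.573 of its control level. Hspd1 was the only gene of the set to pass at 1.5-fold or more, a size at which 0.657% of all genes tested fell and 0.744% rose, and its difference was the 16th lowest of all 11420. Tomm34, Tomm7 and Spg7 followed, at ratios of 0.756, 0.769 and 0.789, and none of the other genes that passed the test reached 1.25-fold on the log2(FPKM + 1) scale. At that size, 4 of the 42 passed, where 11% of all genes tested did.

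**Figure D1:**
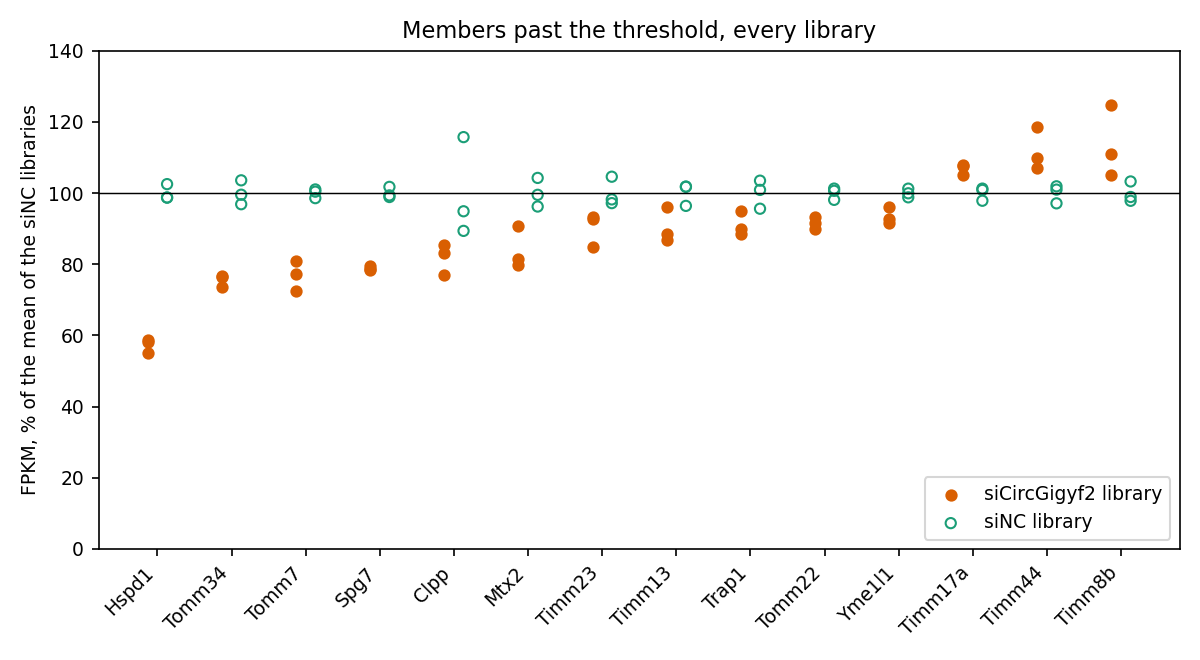
FPKM of the 14 genes past the threshold in each library, as a percentage of the mean of the siNC libraries (y axis), with siCircGigyf2 libraries as filled and siNC libraries as open points. Hspd1 stands apart at the left. The 3 genes that rose lie at the right, with means 6.88% (Timm17a), 11.8% (Timm44) and 13.6% (Timm8b) above those of the siNC libraries.

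Genes below the filter were Timm8a2, an intermembrane chaperone paralog listed at 0 to 0.157 FPKM, Tomm20l, a paralog of the receptor Tomm20 that was listed at 0 in all 6 libraries, and Tomm6os, an RNA antisense to Tomm6 at 0.750 to 1.21 FPKM. They were not tested. Strand handling was not given in the sources used here, so reads of genes whose exons overlap on opposite strands cannot be told apart. In GENCODE M21 this applies to Hspd1 with Hspe1, to Tomm6 with Tomm6os and Usp49, to Timm13 with Tmprss9, to Timm8b with Nkapd1 and to Trap1 with Dnase1, among others.

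Of the 12 tested genes grouped with the outer membrane by symbol, 4 fell and 0 rose, with a median log2 difference of -0.076. Counts by role stand beside all genes tested, of which 19.5% rose and 18.7% fell, and 51% had groups that did not overlap. The share past the threshold was 33.3% here and for the small TIM chaperones, beside 38.2% of all genes tested. It was 28.6% for the matrix chaperones, 37.5% for the proteases and 50% for the 6 TIM23 genes. Among the outer membrane genes, the fall of largest size belonged to Tomm34, which despite its symbol encodes a cytosolic co-chaperone that links Hsp70 and Hsp90 and handles precursors before import. Tomm34 was listed at 26.8, 27.9 and 27.8 FPKM in siCircGigyf2 replicates 1 to 3 and at 37.6, 35.2 and 36.2 FPKM in siNC replicates 1 to 3. Every siCircGigyf2 library lay well below every siNC library, and the log2 difference was -0.39 (SE 0.037, limma adjusted p = 9.58e-05).

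Tomm7, a small TOM subunit that tunes assembly of the complex and helps to hold the kinase PINK1 there, behaved alike. Its levels were 61.0, 57.3 and 63.9 FPKM against 77.8, 79.7 and 79.2 FPKM, a log2 difference of -0.37 (SE 0.040, limma adjusted p = 0.000177). Mtx2, a metaxin that works with Samm50 in inserting beta-barrel proteins, was at 48.0, 43.1 and 42.1 FPKM against 52.6, 55.1 and 50.8 FPKM and fell by 0.25 (SE 0.052, limma adjusted p = 0.00552). Tomm22, the receptor that organises the TOM complex, had a narrower gap, at 94.1, 95.7 and 97.4 FPKM against 102.6, 105.2 and 105.9 FPKM, and fell by 0.13 (SE 0.029, limma adjusted p = 0.00806). The groups did not overlap for any of these genes, as for 51% of all genes tested.

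The channel and the other receptors were closer between groups. Tomm40, the import pore, averaged 21.01 ± 1.81 against 21.6 ± 1.996 FPKM (SD, n = 3), Tomm20, the presequence receptor, 55.8 ± 2.68 against 57.3 ± 0.695, and Tomm70a, the receptor that docks cytosolic Hsp70 and Hsp90, 67.4 ± 0.969 against 69.8 ± 1.21. None passed the test (adjusted p = 0.725, 0.466 and 0.199), although the Tomm70a groups did not overlap. Samm50, the core of the sorting and assembly machinery, Tomm6, a small stabilising subunit, and the pore paralog Tomm40l had log2 differences of 0.041, 0.023 and 0.098 and did not pass. Mtx1, the partner of Mtx2, was lower in every siCircGigyf2 library (-0.10) but missed the threshold (adjusted p = 0.0749), and so did the small subunit Tomm5 (-0.14, adjusted p = 0.112), which passed without siCircGigyf2 replicate 3 (adjusted p = 0.0367).

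**Figure D2:**
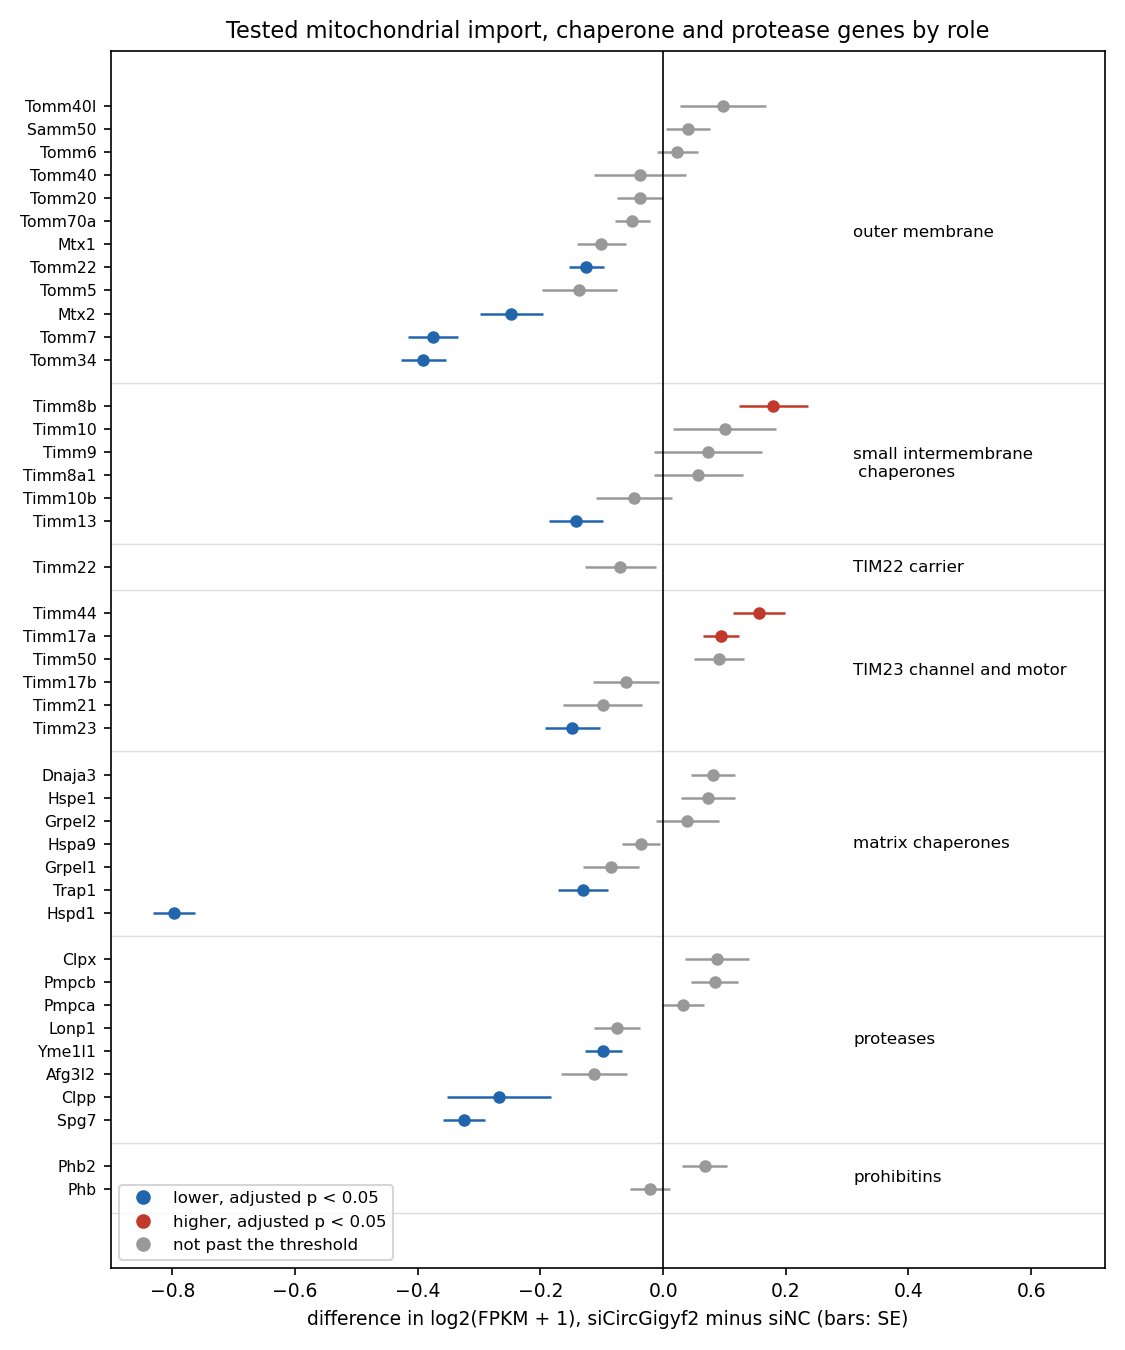
Difference in log2(FPKM + 1) with its standard error (x axis) for the 42 tested genes, grouped by role (y axis); blue genes fell, red genes rose and grey genes did not pass the test. All roles with more than 1 gene hold differences of both signs, and Hspd1 at -0.80 lies far to the left of its own group.

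Among the small TIM chaperones, which shuttle hydrophobic precursors between TOM and the inner membrane, 1 of 6 tested genes rose and 1 fell. Timm8b was at 150.3, 127 and 134 FPKM after knockdown and at 125, 118 and 119 FPKM in the controls. It rose by 0.18 (SE 0.057, limma adjusted p = 0.0336), with replicate 1 far above the other siCircGigyf2 libraries, and its rise was 0.11 (adjusted p = 0.0636) without that library. The call was also lost without siCircGigyf2 replicate 3 and without siNC replicate 2 or 3, with adjusted p up to 0.0948, and without a filter on low values (0.0884), after quantile normalization (0.0612) and without a variance trend (0.0717).

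Timm13, which forms a hexamer with Timm8 proteins, moved the other way. It was at 44.6, 45.4 and 49.4 FPKM against 52.2, 52.2 and 49.5 FPKM, so that the nearest libraries of the groups almost touched. It fell by 0.14 (SE 0.044, limma adjusted p = 0.0314), a call lost without siCircGigyf2 replicate 1 or 2 or siNC replicate 1 or 2 (adjusted p up to 0.0993), without a filter on low values (0.0662), without a variance trend (0.0662) and with a replicate block (0.0641). Timm9 and Timm10, which form the other hexamer, had log2 differences of 0.074 and 0.10, and Timm8a1 and Timm10b 0.057 and -0.048. None of these 4 passed, and their groups overlapped. Timm22, the carrier translocase that the small TIMs feed, averaged 5.93 ± 0.260 against 6.27 ± 0.312 FPKM (SD, n = 3) and did not pass (adjusted p = 0.369).

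Subunits of the TIM23 translocase moved in both directions. Timm23, which forms the channel, was at 95.9, 105.6 and 104.8 FPKM against 111, 110.0 and 118 FPKM and fell by 0.15 (SE 0.045, limma adjusted p = 0.0284). Timm44, which tethers mitochondrial Hsp70 to the channel, was at 54.9, 50.9 and 49.6 FPKM against 47.2, 46.8 and 44.99 FPKM and rose by 0.16 (SE 0.042, limma adjusted p = 0.0176). Timm17a, a channel subunit that is turned over under stress, was at 73.6, 71.8 and 73.8 FPKM against 66.9, 69.2 and 69.0 FPKM and rose by 0.095 (SE 0.029, limma adjusted p = 0.0311).

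The groups did not overlap for any of these TIM23 genes, but each call was lost in some alternatives. That of Timm23 was lost without siCircGigyf2 replicate 1 or siNC replicate 1 or 3 (adjusted p up to 0.0967), that of Timm44 without siNC replicate 3 (0.0633), and that of Timm17a without siCircGigyf2 replicate 1 or 3 or siNC replicate 1 or 3 (up to 0.123). The Timm17a difference shrank to 0.062 after quantile normalization (adjusted p = 0.126), and its call was also lost without a variance trend (0.0784) and with a replicate block (0.0607). The Timm23 call was also lost without a filter on low values (0.0673) and without a variance trend (0.0659). Timm50, the presequence receptor, Timm17b, the second form of Timm17, and Timm21, which bridges to the respiratory chain, had log2 differences of 0.091, -0.061 and -0.099 and did not pass. The summed FPKM of the 6 TIM23 genes was 292 to 300.4 in the siCircGigyf2 libraries and 293 to 305 in the siNC libraries, so that the total did not separate the groups.

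In the matrix, 2 of 7 chaperone genes fell and 0 rose. Hspd1 was listed at 88.6, 82.9 and 87.8 FPKM in siCircGigyf2 replicates 1 to 3 and at 149, 149 and 155 FPKM in siNC replicates 1 to 3. The groups lay far apart beside the SD of 3.07 and 3.29 FPKM within them, and the log2 difference was -0.80 (SE 0.034, limma adjusted p = 3.91e-06). Its partner Hspe1, which encodes the Hsp10 lid of the same folding chamber and had the highest mean level of the set, was at 267, 235 and 256 FPKM against 241, 238 and 241 FPKM. These groups overlapped, the log2 difference was 0.073 (SE 0.044, limma adjusted p = 0.222), and the gene passed without siCircGigyf2 replicate 2 (0.12, adjusted p = 0.0162). The ratio of Hspd1 to Hspe1 was therefore 0.332, 0.353 and 0.342 in the siCircGigyf2 libraries and 0.618, 0.628 and 0.642 in the siNC libraries. Both genes have annotated pseudogenes, 5 for Hspd1 and 6 for Hspe1 by name, with which reads could be shared.

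**Figure D3:**
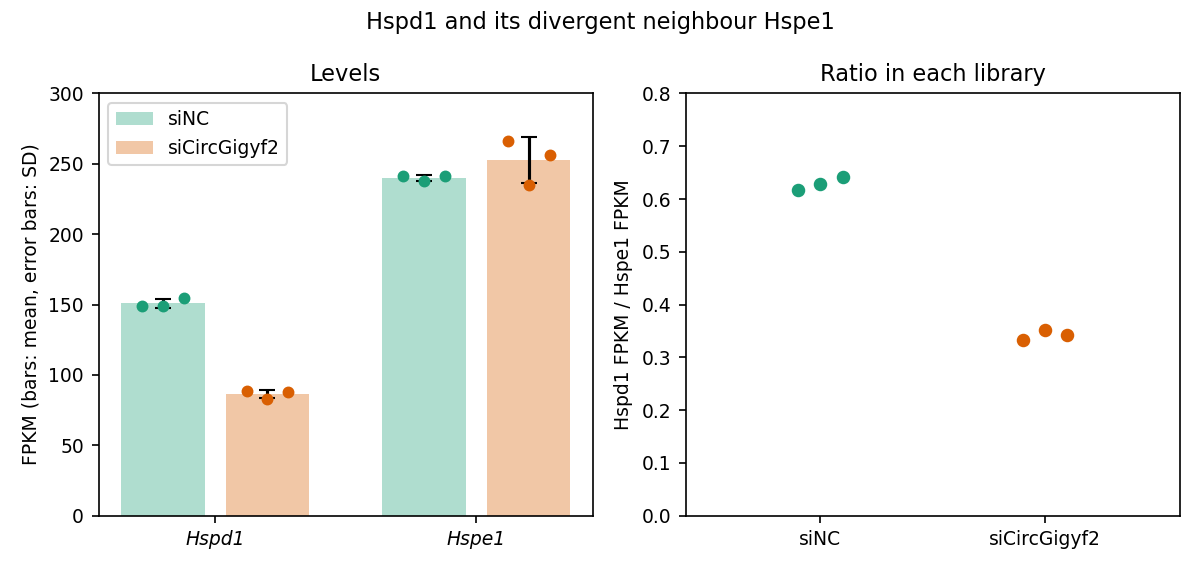
Left, FPKM of Hspd1 and Hspe1 (y axis) as means with SD over 3 libraries and a point per library; right, the ratio of both in each library. Hspd1 averaged 86.4 against 151 FPKM while Hspe1 averaged 253 against 240.0 FPKM.

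Hspd1 and Hspe1 lie head to head on chromosome 1 and are known to share a bidirectional, heat-inducible promoter. That region is shown because the pair that shares it did not move together. In the RefSeq start sites of build GRCm38.p6, an Hspd1 start at position 55087932 on the minus strand lies 216 bases from the Hspe1 start at 55088148 on the plus strand, and the 300-base windows around them share 285 bases. A second Hspd1 start is annotated at 55088243, and its window shares 4 bases with the Hspe1 window. The Hspe1 window, chr1:55087898-55088197 on the plus strand, reads from 250 bases before to 50 bases after the start as follows, with heat shock element matches in capitals.
Hspe1 promoter: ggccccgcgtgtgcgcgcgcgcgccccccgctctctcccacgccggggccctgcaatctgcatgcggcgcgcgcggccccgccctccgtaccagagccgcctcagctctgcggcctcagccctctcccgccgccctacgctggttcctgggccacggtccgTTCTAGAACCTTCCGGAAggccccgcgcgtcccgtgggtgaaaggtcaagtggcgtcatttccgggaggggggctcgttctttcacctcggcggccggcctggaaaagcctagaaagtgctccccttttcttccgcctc
The motif searched was TTCNNGAANNTTC on both strands, and the capitals hold 2 overlapping matches, at positions 162 to 174 and 167 to 179 of the window. The heat shock element was found in 0.603% of 32851 promoter windows and, since a gene can have several windows, in 0.662% of 27025 genes. Of the 36 tested genes of the set with a window, Hspd1, Hspe1 and Timm9 held it. In Hspd1 it lay in the window of the start at 55087932 and not in that of the start at 55088243. The matches of Hspd1 and Hspe1 are the same bases read on opposite strands, so the same site is counted for both genes. The core of the NRF1 motif, GCATGCGC, was found in Clpx, Grpel1 and Timm13 and in 3.05% of all genes (2.71% of windows), and the ETS motif CCGGAAGT in 7 of the 36 genes, among them Mtx2, Timm23 and Tomm70a, and in 4.31% of all genes (3.89% of windows). Of the genes with any of these motifs, Hspd1, Timm13, Mtx2 and Timm23 fell and the others did not pass. A match is a description of the letters only.

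The other matrix chaperones differed by less. Trap1, the mitochondrial Hsp90 paralog, was at 45.6, 49.0 and 46.4 FPKM against 49.3, 53.3 and 52.0 FPKM and fell by 0.13 (SE 0.041, limma adjusted p = 0.0323), a call lost without siCircGigyf2 replicate 1 or 3 or siNC replicate 2 or 3 (adjusted p up to 0.105), without a filter on low values (0.0617) and without a variance trend (0.0685). Hspa9, the mitochondrial Hsp70 that drives import, was at 152, 152 and 144 FPKM against 155, 152 and 152 FPKM. Its groups overlapped and its log2 difference was -0.036 (SE 0.031, adjusted p = 0.389). Dnaja3, a J-domain partner of Hspa9, was higher in every siCircGigyf2 library (0.082) but did not pass (adjusted p = 0.102), and the nucleotide exchange factors Grpel1 and Grpel2 had differences of -0.085 and 0.039. The summed FPKM of the 7 matrix chaperones was 603 to 633 in the siCircGigyf2 libraries and 673 to 682 in the siNC libraries, but without Hspd1 it averaged 532 ± 12.045 against 527 ± 2.79 (SD, n = 3), with overlapping groups.

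**Figure D4:**
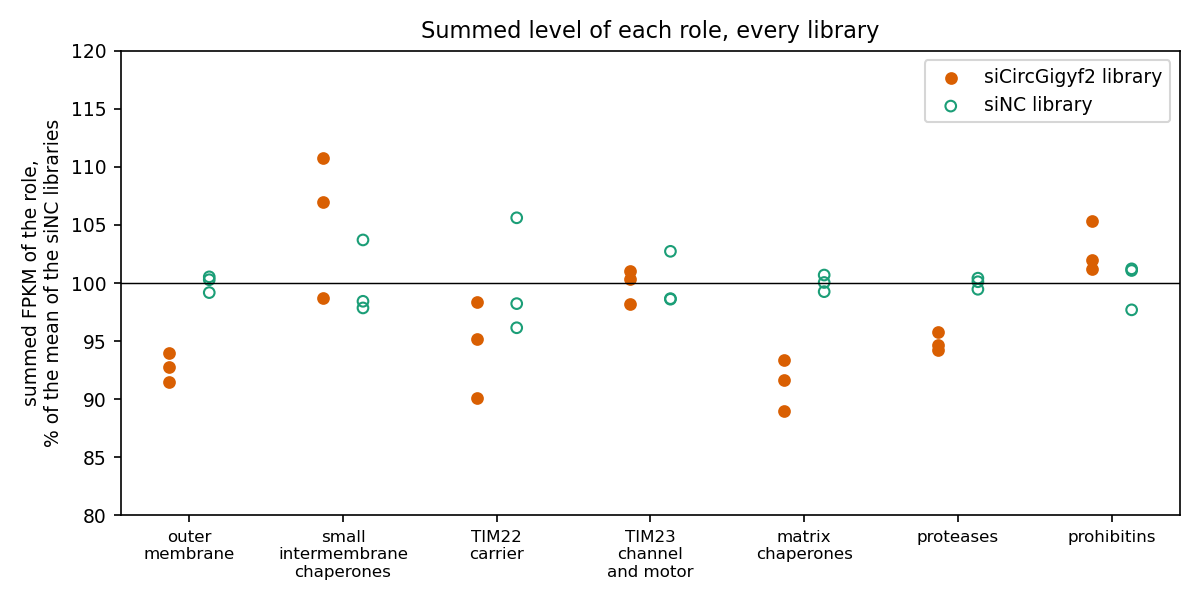
Summed FPKM of each role in each library, as a percentage of the mean of the siNC libraries (y axis from 80 to 120%), with siCircGigyf2 libraries as filled and siNC libraries as open points. Sums of the outer membrane genes (Tomm34 counted with them), the matrix chaperones and the proteases did not overlap between groups. Those of the small TIM, TIM22, TIM23 and prohibitin genes did.

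Of the 8 genes of proteases and the processing peptidase, 3 fell and 0 rose, with a median log2 difference of -0.086. Spg7, paraplegin, a subunit of the m-AAA protease of the inner membrane, was at 17.3, 17.5 and 17.2 FPKM against 22.3, 21.8 and 21.7 FPKM. Both groups were tight and far apart, and it fell by 0.32 (SE 0.034, limma adjusted p = 0.000161). Afg3l2, which can form the m-AAA protease alone or with paraplegin, was at 22.9 to 26.1 against 25.0 to 27.5 FPKM. Its groups overlapped and it did not pass (-0.11, adjusted p = 0.132), though it did without siCircGigyf2 replicate 3 (adjusted p = 0.0330).

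Clpp, the proteolytic chamber of the ClpXP protease, was at 17.7, 17.3 and 16.0 FPKM against 19.7, 23.9999 and 18.5 FPKM, with siNC replicate 2 high. It fell by 0.27 (SE 0.084, limma adjusted p = 0.0336), by 0.16 without siNC replicate 2 (adjusted p = 0.0597), and the call was also lost without siCircGigyf2 replicate 1, 2 or 3 (up to 0.102), without a filter on low values (0.0936) and without a variance trend (0.0614). Its unfoldase Clpx averaged 14.0 ± 0.990 against 13.1 ± 0.131 FPKM (SD, n = 3) and did not pass, except without siCircGigyf2 replicate 3 (adjusted p = 0.0379). Yme1l1, the i-AAA protease that faces the intermembrane space, was at 88.6, 84.5 and 85.7 FPKM against 92.3, 91.2 and 93.5 FPKM and fell by 0.097 (SE 0.030, limma adjusted p = 0.0299), a call lost without siCircGigyf2 replicate 2 or 3 or siNC replicate 1 or 3 (up to 0.0969) and without a variance trend (0.0783).

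The remaining genes of this kind did not pass. Lonp1, the main soluble matrix protease, averaged 92.1 ± 3.27 against 97.0 ± 3.21 FPKM (SD, n = 3, adjusted p = 0.138). The processing peptidase subunits Pmpca and Pmpcb had log2 differences of 0.032 and 0.084, and Pmpcb passed without siNC replicate 1 (adjusted p = 0.0460). The prohibitins Phb and Phb2, which form a ring scaffold around the m-AAA protease, averaged 44.5 ± 0.410 against 45.2 ± 1.36 and 104 ± 3.07 against 99.6 ± 3.82 FPKM, and neither passed (adjusted p = 0.645 and 0.177).

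Ratios within complexes and between paralogs were compared in each library for 13 pairs. With 3 libraries a group the exact two-sided permutation test cannot give a p below 0.1. No pair could therefore pass, and the test cannot decide whether a ratio changed. The value of 0.1 was reached by 6 pairs (adjusted p = 0.217 over the 13). The ratio that differed most was Hspd1 to Hspe1, with a log2 difference of -0.88. Clpp to Clpx had a mean ratio of 1.21 in the siCircGigyf2 libraries and 1.58 in the siNC libraries, Timm23 to Timm50 2.72 and 3.22, Afg3l2 to Spg7 1.40 and 1.197, Timm17a to Timm17b 3.48 and 3.12, and Mtx1 to Mtx2 0.291 and 0.263. For these 6 pairs the ratios of the groups did not overlap. The share of separate ratios among other pairs of genes was not taken, and of all single genes tested 51% separated. Pmpca to Pmpcb (0.979 and 1.02), Phb to Phb2 (0.426 and 0.454), Timm9 to Timm10 (1.11 and 1.14) and the other 4 pairs had overlapping ratios.

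Transcripts were also searched for GCCTACA, because this 7-mer was picked in an earlier analysis of these same differences, so that its counts are a description and no independent evidence. The longest coding GENCODE M21 transcript of a gene was used, which was found for all 42 tested genes of the set. The 7-mer was present in 12 of the 42 (28.6%), beside 19.3% of 10602 genes searched. Of these 12 genes, 6 fell and 0 rose, with a median log2 difference of -0.13. Of the 30 without it, 5 fell and 3 rose (median 0.027). Over all genes searched, 32% of those with the 7-mer fell, beside 16.1% of those without it. Transcripts with the 7-mer were longer, with a median of 2923 against 1632 bases in the set and 4076 against 2794 over all genes, and the part of length was not tested.

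The 6 genes that held the 7-mer and fell are shown with 10 bases on each side, in the sense of the transcript, with the match in capitals, carried on to the next base where that is an A.
Hspd1: cattgtccatGCCTACAgataatttat
Tomm34: acgggctcaaGCCTACAAggcactcaa
Spg7: ggtggccaaaGCCTACAgacacaccga
Clpp: accaagcagaGCCTACAggtgatcgag
Mtx2: agaaatgaaaGCCTACAtggaattagt
Timm13: cgtgtcccgcGCCTACAActctcgact
In Hspd1 the match lies in the 3' UTR, at base 187 after the stop codon in the last of 12 exons (chr1:55078095-55078101, minus strand, GRCm38). In the others it lies in the coding sequence: exon 6 of 7 of Tomm34 (chr2:164054712-164054718, minus), exon 16 of 17 of Spg7 (chr8:123095182-123095188, plus), exon 5 of 6 of Clpp (chr17:56993539-56993545, plus), exon 6 of 10 of Mtx2 (chr2:74868371-74868377, plus) and exon 3 of 3 of Timm13 (chr10:80900196-80900202, minus). Tomm34 and Timm13 match 8 bases. The 7-mer did not go with a fall in every gene: Samm50, Timm22 and Tomm70a held it in the 3' UTR and Afg3l2, Hspa9 and Lonp1 in the coding sequence, and none of these passed the test. Tomm7, Tomm22, Timm23, Trap1 and Yme1l1 fell without it.

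**Figure D5:**
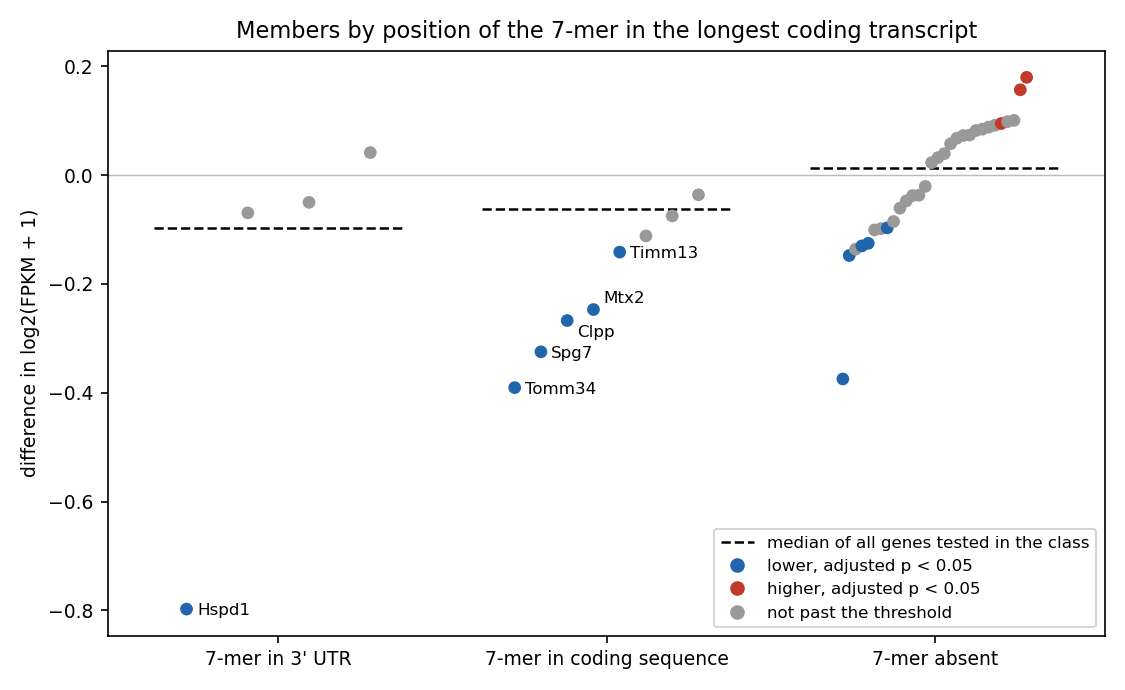
Difference in log2(FPKM + 1) of each tested gene of the set (y axis) by where its longest coding transcript holds GCCTACA (x axis), with dashed lines at the median of all genes tested in that class. Of 4 genes with a 3' UTR match only Hspd1 fell, at -0.80, and 5 of 8 genes with a coding match fell. Over all genes searched, 38.9% of those with a 3' UTR match and 28.9% of those with a coding match fell.

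Other genes of the pathway were counted from lists by function. The counts of this list and of those that follow stand beside all genes tested, of which 19.5% rose and 18.7% fell. Of 31 tested genes of import, maturation, inner membrane organisation and quality control, 6 rose and 5 fell (median -0.024). Atad1, an outer membrane extractase for misplaced tail-anchored proteins, averaged 73.9 ± 3.36 against 94.9 ± 1.05 FPKM (SD, n = 3), Atad3a, of the inner membrane, 18.6 ± 0.326 against 23.3 ± 0.578, and Chchd6, of the cristae-organising MICOS complex, 10.6 ± 0.750 against 15.2 ± 1.03, and these fell. Oxa1l, the insertase for inner membrane proteins, rose from 14.4 ± 0.914 to 17.6 ± 0.440 FPKM. Adjusted p for these 4 lay between 0.000141 and 0.00263.

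Abundant mitochondrial proteins that use this machinery were also looked up. Of 9 such genes and genes of mitochondrial DNA upkeep, 4 rose and 1 fell. Citrate synthase, Cs, averaged 183 ± 4.07 against 149.7 ± 4.95 FPKM (SD, n = 3), the porin gene Vdac1 406 ± 6.56 against 350.2 ± 2.03, and the adenine nucleotide carriers Slc25a4 and Slc25a5 rose by 0.20 and 0.17 on the log2 scale. Tfam, which packages mitochondrial DNA, was the gene that fell, by 0.18. Adjusted p for these 5 lay between 0.000254 and 0.00635. The other 4 did not pass: the porin genes Vdac2 (0.0061) and Vdac3 (0.041), Polg (0.0063) and Polrmt (-0.091).

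Of 11 cytosolic chaperones that deliver precursors, 3 fell and 1 rose. Stip1, which like Tomm34 links Hsp70 to Hsp90, averaged 47.7 ± 3.55 against 94.8 ± 0.581 FPKM (SD, n = 3), the constitutive Hsp90 gene Hsp90ab1 1180 ± 19.1 against 1533 ± 8.15, and the Hsp70 exchange factor gene Bag1 32.8 ± 1.53 against 43.5 ± 2.14, whereas Dnajb1 rose by 0.19. The inducible Hsp90 gene Hsp90aa1 had a log2 difference of 0.0072 and did not pass. Of 10 tested regulators and targets tied to the mitochondrial unfolded protein response, 2 rose and 1 fell. Atf5, the factor named as its transcriptional driver in mammals, averaged 15.2 ± 0.395 against 18.8 ± 0.876 FPKM and fell by 0.29 (limma adjusted p = 0.00111). Atf4 and its target Asns rose by 0.080 and 0.17 (adjusted p = 0.0395 and 0.00346), and Ddit3, another stress-response factor, averaged 77.2 ± 5.60 against 68.8 ± 5.90 FPKM and did not pass (adjusted p = 0.0783). The rest of this list did not pass either: Hsf1 (-0.13), Trib3 (-0.097), Ppargc1b (0.12), Esrra (0.014), Gabpa (-0.0066) and Nrf1 (0.0083). Trib3 was lower and Ppargc1b higher in every siCircGigyf2 library than in any siNC library.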

How the data were processed

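The authors deposited FPKM per gene symbol for 6 libraries, 3 per group, from total RNA depleted of ribosomal RNA per the labels' protocols. Per the submitters' processing notes the build was mm9; the sources used here name no aligner, quantifier or annotation. FPKM are relative and are not counts, so no count model was used. The 11420 genes averaging at least 1 FPKM entered limma 3.58.1 (R 4.3.3) after adding 1 and taking log2 (2 groups, empirical Bayes with a variance trend, two-sided, no covariates, threshold 0.05). On simulated data for this comparison, with 200 of 11420 genes changed, it recovered 50% of 1.2-fold and 84% of 1.5-fold changes. There, 5 of 139 calls were false. In the real data 38.2% of the genes tested passed, a far larger share, so these rates need not hold for them.

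The set, the lists and the 7-mer were chosen with earlier results of these data known, so they got no set test. Values per library are given for called genes with separate groups and for the 3 of highest mean level. Of other lists, up to 4 genes of smallest p were named. Tfam, Hsp90aa1, Vdac2, Vdac3, Polg, Polrmt, Hsf1, Trib3, Ppargc1b, Esrra, Gabpa and Nrf1 were added after their values were seen. Transcripts came from GENCODE M21 (GRCm38) and promoters from RefSeq (GRCm38.p6), joined by symbol, with Python 3.11.15. Alternatives were a pseudocount of 0.1, no filter, a filter of 5 FPKM, quantile and median-of-ratios scaling, a replicate block, no variance trend, robust empirical Bayes and leaving out each library. At most 0.00623% of values were identical between any 2 libraries.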

Additional observations from a re-analysis of the deposited data

How the results depend on the processing

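Of the 14 genes of the set past the threshold, 6 kept their call and direction in all 14 alternatives (Hspd1, Tomm34, Tomm7, Spg7, Mtx2 and Tomm22, all lower), none of the 14 changed sign, and 5 other genes passed in an alternative. The number of lower genes (11) was 7 without a filter on low values and 6 without a variance trend, and 7 to 10 with a library left out. The number of higher genes (3) was 1 after quantile normalization, 1 without a variance trend and 0 to 4 with a library left out. The median log2 difference (-0.043) was -0.056 after quantile normalization and -0.050 to -0.033 with a library left out. The causes were not tested. Counts over all genes stayed within 1.5 times. Signs turned in genes that did not pass: Tomm6 to -0.011 after quantile normalization, and with a library left out Timm10b ranged from -0.11 to 0.0027 (turned without siNC replicate 3), Timm9 from -0.018 to 0.15 (without siNC replicate 3), Timm8a1 from -0.012 to 0.13 (without siCircGigyf2 replicate 1) and Tomm40 from -0.10 to 0.023 (0.021 without siCircGigyf2 replicate 1, 0.023 without siNC replicate 1). The replicate numbers did not pair the libraries (correlations of same-numbered deviations 0.163, -0.0208 and 0.00253). With the replicate block, Timm13 and Timm17a lost their calls (adjusted p = 0.0641 and 0.0607), leaving 10 lower and 2 higher genes, beside 1926 and 2047 of all genes. FPKM without counts give no interval for counting error, so small differences of low genes such as Timm22 and Tomm40l are limited by an unknown depth.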
